A study of Mus musculus with 2 samples.

Results

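The genes described here encode the machinery that moves newly made secretory proteins into the endoplasmic reticulum (ER) and on to the Golgi. They are 47 genes of the translocon, the signal recognition particle (SRP), signal peptidase, oligosaccharyltransferase, the COPII and COPI coats, the p24 and KDEL receptor families and ER folding. Each was found through the RefSeq accession of its probes, and a gene took its probe of highest mean intensity over both arrays. Of the 47 genes, 46 had a probe, among 18946 genes named in the same way, and Pdia3, a disulfide isomerase, had none. All 46 were detected, of 10405 genes detected in all, where detected means well above background in the same pool on both arrays. In both pools on both arrays 40 of them were detected.

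RNA came from the dorsolateral prostate of FVB/N mice aged 6 months. The transgenic pool held RNA of 6 mice carrying ARR2PB-miR32, in which an androgen-responsive probasin promoter drives the microRNA miR-32 in prostate epithelium, and the wild-type pool held RNA of 6 wild-type mice. Both pools were co-hybridised on 2 dual-colour arrays of 1 slide, with the transgenic pool in Cy3 on array 1 and in Cy5 on array 2. Each genotype was thus 1 pool, the arrays repeat the same pools, no p-value was computed, and each ± is the SD over the 2 arrays. Whether these genes differ between the pools is one part of the question of what miR-32 does to prostate transcripts.

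Secretory proteins are recognised by SRP as they leave the ribosome, passed through the Sec61 channel, trimmed by signal peptidase and glycosylated by oligosaccharyltransferase. COPII vesicles then carry folded cargo from the ER, and COPI vesicles bring escaped ER residents and receptors back. The luminal cells of the prostate gland make large amounts of secreted protein and depend on this route. In mammals the unfolded protein response raises many of these genes through XBP1 and ATF6, which act at short promoter elements.

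The transgene product is shown first because it is the agent that distinguishes the pools, with its seed (bases 2 to 8) in capitals. RefSeq places both arms on the minus strand of chromosome 4 in GRCm38.p6, the 5p arm at chr4:56895272-56895293 and the 3p arm at chr4:56895232-56895252.
mmu-miR-32-5p: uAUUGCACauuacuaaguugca
mmu-miR-32-3p: cAAUUUAGugugugugauauu
The next sequences are 250 bases upstream of the annotated start of 4 genes, from RefSeq on GRCm38.p6, each read 5′ to 3′ on the strand of its gene. They are shown because they carry an element of the unfolded protein response, in capitals, while the measured ratios of the genes differ. Hspa5 lies at chr2:34771840-34772089 (plus strand), Canx at chr11:50325674-50325923 (minus), Pdia6 at chr12:17266339-17266588 (plus) and Sec24d at chr3:123267246-123267495 (plus).
Hspa5: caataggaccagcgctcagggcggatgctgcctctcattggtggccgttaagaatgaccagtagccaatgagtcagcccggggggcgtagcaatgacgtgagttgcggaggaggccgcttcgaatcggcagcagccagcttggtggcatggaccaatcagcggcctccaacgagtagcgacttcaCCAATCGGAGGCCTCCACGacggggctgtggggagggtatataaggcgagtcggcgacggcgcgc
Canx: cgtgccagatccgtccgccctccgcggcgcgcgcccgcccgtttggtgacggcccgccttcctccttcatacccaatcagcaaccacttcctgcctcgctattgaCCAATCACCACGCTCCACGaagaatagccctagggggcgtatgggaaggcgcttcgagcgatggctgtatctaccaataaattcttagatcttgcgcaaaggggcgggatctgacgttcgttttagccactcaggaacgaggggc
Pdia6: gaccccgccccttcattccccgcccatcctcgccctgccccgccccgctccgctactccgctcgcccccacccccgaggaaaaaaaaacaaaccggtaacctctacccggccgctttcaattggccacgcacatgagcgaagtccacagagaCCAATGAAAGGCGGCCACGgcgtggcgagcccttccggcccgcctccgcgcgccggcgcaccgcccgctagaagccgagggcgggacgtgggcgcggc
Sec24d: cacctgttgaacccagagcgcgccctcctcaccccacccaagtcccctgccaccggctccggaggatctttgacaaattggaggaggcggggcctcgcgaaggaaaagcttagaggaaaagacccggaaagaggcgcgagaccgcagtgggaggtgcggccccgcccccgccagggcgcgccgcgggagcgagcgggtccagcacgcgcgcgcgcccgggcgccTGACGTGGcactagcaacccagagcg
The capitals mark the ER stress element, CCAAT and CCACG with 9 bases of any kind between them, in Hspa5, Canx and Pdia6 and the element TGACGTGG in Sec24d.

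Few genes of the machinery passed the limit set for a difference between the pools. A gene was called when its log2 ratio of transgenic over wild type passed 1.5-fold with one sign on both arrays. Of the 46 genes, 1 was higher (Kdelr2), 1 was lower (Ssr2) and 44 were neither, where 2.22% of all detected genes were called (0.913% higher and 1.31% lower). The whole array gave 95 genes higher and 136 lower, against 246 and 621 by the log ratios of the scanner software and 2 and 554 with median centring. In the authors' deposited table, where 6046 of these genes have a value in place of 10405, they were 173 and 117. No gene of the machinery was called by the scanner's own ratios or in the deposited table, which holds 40 of the 46. At 2-fold on both arrays 1 gene of the machinery, Ssr2, was called, where 0.596% of all detected genes were. The median log2 ratio of the 46 genes was −0.10 (−0.20 on array 1 and −0.09 on array 2), beside −0.06 over all detected genes, and 28 of the 46 means lay below 0, as did 6172 of the 10405. For any gene with a lower ratio in whole tissue, fewer secretory cells and less RNA per cell cannot be told apart.

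The arrays often disagreed on a gene. The ratios had the same sign on both arrays for 20 of the 46 genes, against 4723 of 10405 over all detected genes. The median SD over arrays was 0.44 for the machinery and 0.28 over all detected genes. Across the 46 genes the arrays correlated at Pearson r = 0.10 (Spearman −0.02), and across all detected genes at r = −0.03 (Spearman −0.12). These are descriptions over genes that share the same pools, dyes and arrays. In 1 gene, Srp14, the ratio followed the dye and not the pool past the same 1.5-fold limit, as in 3.06% of all detected genes. The plot of the ratios by gene shows this spread for each complex.

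**Figure D1:**
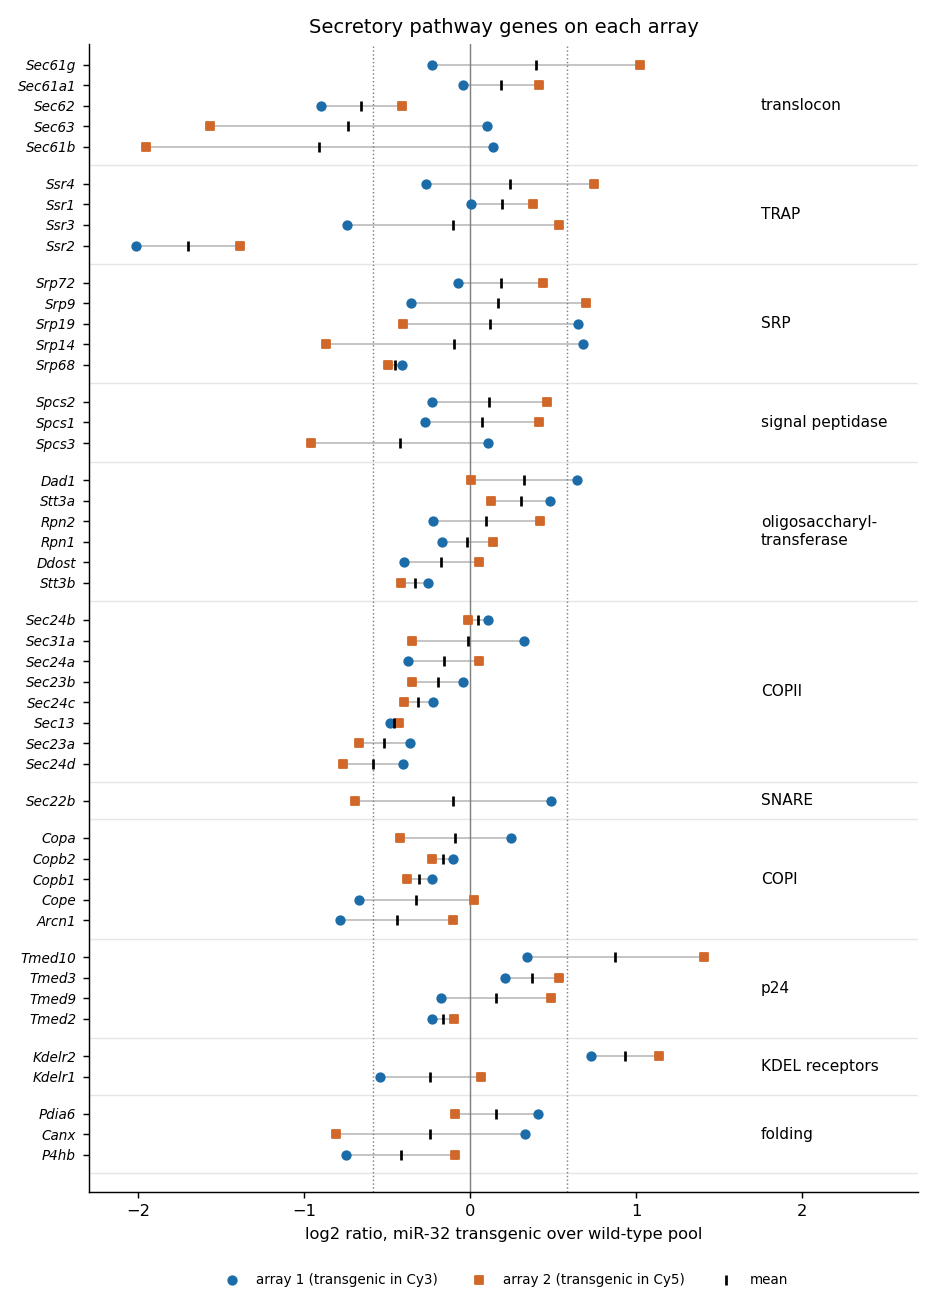
Log2 ratio of the transgenic over the wild-type pool (horizontal axis) for the 46 detected genes by complex, on array 1 (circles), on array 2 (squares) and as their mean (bars), with dotted lines at 1.5-fold. Kdelr2 and Ssr2 have both points beyond a line on the same side, and for most other genes the points lie on both sides of 0 or inside the lines.

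The translocon showed the widest disagreement between arrays, and none of its 5 genes was called. Sec61b, the beta subunit of the Sec61 channel, had log2 intensities of 13.65 and 11.47 in the transgenic pool on arrays 1 and 2, against 13.51 and 13.43 in the wild-type pool. Only the transgenic signal of array 2 stood apart, so the ratios were 0.14 and −1.96 (mean −0.91 ± 1.48) and the pools overlapped. Sec63, a J-domain protein that recruits the chaperone BiP to the channel, had the same form with ratios of 0.10 and −1.57. Similarly bright spots near Sec61b and Sec63 were also low on array 2, with medians of −0.90 and −0.88. Less such spots on each array, Sec61b had −0.02 and −1.05 and Sec63 had 0.17 and −0.69. By the scanner's own ratios they had −0.85 and −2.55 on array 2. Sec61g, the gamma subunit, was the highest, with 14.53 and 15.01 in the transgenic pool against 14.76 and 13.99 in the wild-type pool (0.40 ± 0.89). Its ratios were opposite in sign, −0.23 and 1.02. Sec61a1, the pore-forming subunit, was at 0.18 ± 0.32 and its partner Sec62 at −0.66 ± 0.35. Further detected probes of Sec61a1 had means of −0.85 and 0.26. The transgenic signal of Sec62 and Sec63 stood well above background on 1 array only.

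In the translocon-associated protein complex (TRAP), which assists the entry of some chains, Ssr2 was the single lower gene of the machinery. Ssr2, the beta subunit, had log2 intensities of 9.22 and 9.08 in the transgenic pool, against 11.24 and 10.47 in the wild-type pool. Both transgenic values lay below both wild-type values, with ratios of −2.01 and −1.39, a mean of −1.70 ± 0.44 and a 3.25-fold difference. The scanner software's ratios were −2.59 and −0.31, so that the call rests on array 2 as normalized here. By their brightest probes its partners lay nearer to 0: Ssr1 was at 0.19 ± 0.26, Ssr3 at −0.10 ± 0.91 and Ssr4 at 0.24 ± 0.71. Further detected probes of Ssr3 had means of 0.92 and 0.03. The brighter of these had 0.54 and 1.30, inside the limit on array 1. It passed the limit less similarly bright spots nearby (0.67 and 0.79) and by the scanner's own ratios (0.98 and 0.92). Further probes of Ssr1 had means from −0.33 to −0.18, and that of Ssr4 had 0.06. Ssr4, the delta subunit, had 13.03 and 13.72 in the transgenic pool and 13.29 and 12.97 in the wild-type pool, and the pools overlapped. Ssr2 had 1 probe, so no other probe could be set beside it.

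None of the 5 SRP genes was called. Srp68, which with Srp72 forms the largest protein pair of the particle, had 8.15 and 8.10 in the transgenic pool against 8.56 and 8.59 in the wild-type pool. Its arrays nearly coincided, at −0.41 and −0.49 (−0.45 ± 0.06), inside the 1.5-fold limit. Srp72 was the highest at 0.18 ± 0.36, with 9.31 and 9.38 in the transgenic pool against 9.38 and 8.94 in the wild-type pool. The 2 partners of one heterodimer thus had means on opposite sides of 0 by these probes. Further detected probes of Srp72 had means of −0.19 and 0.16. Srp14, of the Alu-binding pair, had ratios of 0.68 and −0.87, brighter in Cy3 on both arrays. Its partner Srp9 had the reverse order, −0.36 and 0.69, and Srp19, which helps assemble the particle, had 0.65 and −0.41. Similarly bright spots near Srp14 had medians of 0.45 and −0.93, and less these Srp14 had 0.22 and 0.06.

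Signal peptidase and oligosaccharyltransferase, the enzymes that act on the entering chain, had no called gene among 3 and 6. Spcs3, a signal peptidase subunit, had 10.28 and 8.63 in the transgenic pool against 10.17 and 9.58 in the wild-type pool (−0.42 ± 0.75). Spcs2, an accessory subunit, had 10.89 and 10.98 in the transgenic pool against 11.13 and 10.52 in the wild-type pool (0.12 ± 0.49), and the pools overlapped for both genes. Spcs1 was at 0.07 ± 0.49. Dad1, a small oligosaccharyltransferase subunit known as a defender against cell death, was the highest of its complex at 0.32 ± 0.45. It had 12.73 and 12.66 in the transgenic pool against 12.09 and 12.66 in the wild-type pool, a difference on array 1 alone. The catalytic subunits had means on opposite sides of 0: Stt3a, of the form that glycosylates chains during translocation, was at 0.30 ± 0.25, and Stt3b, of the form that acts on skipped sites, at −0.34 ± 0.11. Stt3b had 9.45 and 9.38 in the transgenic pool, both below the 9.71 and 9.80 of the wild-type pool. A second detected probe of Stt3b had a mean of 0.17, on the same side of 0 as Stt3a. Rpn1, Rpn2 and Ddost, which hold the complex together at the translocon, were at −0.02, 0.10 and −0.18, each with an SD larger than its mean.

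COPII, the coat that forms at ER exit sites, lay mostly below 0, and none of its 8 genes was called. The mean was below 0 in 7 of the 8, beside 6172 of 10405 over all detected genes, with a median of −0.26 (−0.30 on array 1 and −0.38 on array 2), and the median SD of 0.22 was smaller than in any other group of the machinery. Sec24d, a cargo adaptor of the inner coat, was the lowest, with 8.34 and 7.54 in the transgenic pool against 8.74 and 8.30 in the wild-type pool (−0.59 ± 0.26). Sec23a, which activates the GTPase of the inner coat, was at −0.52 ± 0.22, Sec13 of the outer coat at −0.46 ± 0.04, and Sec24c at −0.31 ± 0.12. Sec24b, another cargo adaptor, was the highest, with 7.43 and 7.28 in the transgenic pool against 7.33 and 7.29 in the wild-type pool (0.05 ± 0.08). Sec23b, Sec24a and Sec31a were at −0.20, −0.16 and −0.02. The transgenic signal of Sec23a, Sec24a, Sec24b and Sec24d stood well above background on 1 array only. After each ratio was set against the 25 nearest detected spots of similar brightness, the COPII median was −0.07, with Sec24d at −0.43 ± 0.04 and Sec23a at −0.34 ± 0.04. The COPII median SD was then 0.22 and no longer the smallest, with 0.11 for SRP and 0.14 for oligosaccharyltransferase.

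COPI, the coat of retrograde vesicles, also had no call. All 5 means were below 0 (median −0.31), beside 6172 of 10405 over all detected genes. Arcn1, the delta subunit, was the lowest, with 8.21 and 8.73 in the transgenic pool against 9.0 and 8.83 in the wild-type pool (−0.44 ± 0.48). Copa, the alpha subunit, was the least displaced, with 11.09 and 10.67 in the transgenic pool against 10.84 and 11.10 in the wild-type pool (−0.09 ± 0.48). Copb1, Copb2 and Cope lay between them at −0.31, −0.17 and −0.33. Further detected probes of Copa and Copb1 had means of 0.38 and 0.17, and those of Arcn1 had 0.23 and −0.19. Against nearby spots of similar brightness the COPI median was −0.16, and Copa turned to 0.06. Sec22b, a SNARE of ER-Golgi fusion, had 10.12 and 9.25 in the transgenic pool against 9.64 and 9.95 in the wild-type pool, with ratios of 0.49 and −0.69.

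The p24 proteins and KDEL receptors, which load and retrieve cargo between the Golgi and the ER, held the highest ratios of the machinery. Kdelr2, a receptor that returns ER residents carrying a KDEL tail, had 9.90 and 10.92 in the transgenic pool against 9.17 and 9.79 in the wild-type pool. The pools did not overlap, and the ratios of 0.73 and 1.14 (mean 0.93 ± 0.29) gave a 1.91-fold difference, the only call in this direction. A second detected probe of Kdelr2 gave −0.36 and 0.45 (0.05), and the call ended with the mean over probes (0.49). The scanner's own ratios of Kdelr2 were 0.44 and 2.90, below the limit on array 1, and its spot lies in a patch of high ratios on array 2. Kdelr1, its close relative, was at −0.24 ± 0.43, with 7.88 and 8.26 in the transgenic pool against 8.43 and 8.19 in the wild-type pool. Tmed10, a p24 cargo receptor, had 13.01 and 14.17 in the transgenic pool against 12.66 and 12.76 in the wild-type pool. Its ratios of 0.34 and 1.41 (0.87 ± 0.75) did not pass the limit on array 1, and its second probe gave 0.80 and −1.50. Tmed3 was at 0.37 ± 0.23 and Tmed9 at 0.15 ± 0.47, while Tmed2, with 12.12 and 11.68 in the transgenic pool against 12.35 and 11.78 in the wild-type pool, was at −0.16 ± 0.10.

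The 3 measured folding genes were not called. P4hb, the protein disulfide isomerase, had 11.65 and 12.30 in the transgenic pool, both below the 12.40 and 12.39 of the wild-type pool (−0.42 ± 0.46). Pdia6, a related isomerase, had 14.37 and 13.79 in the transgenic pool against 13.96 and 13.88 in the wild-type pool (0.16 ± 0.36). The lectin chaperone Canx had ratios of 0.33 and −0.81 (−0.24 ± 0.80). The plot of pool signals sets the genes with the largest ratios beside BiP and Xbp1.

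**Figure D2:**
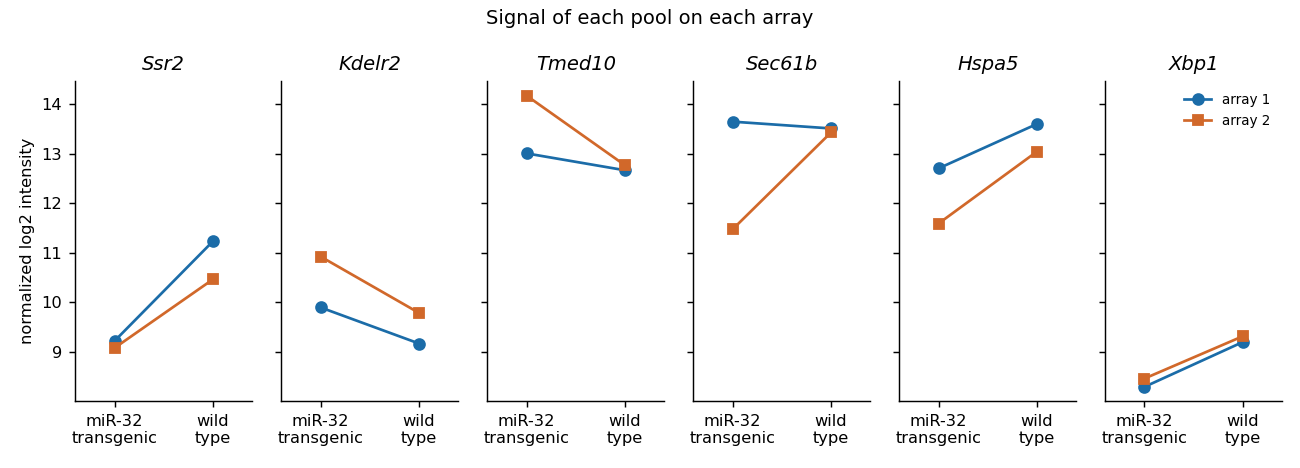
Normalized log2 intensity (vertical axis) of the transgenic and the wild-type pool on array 1 (circles) and array 2 (squares) for 4 genes of the machinery and for Hspa5 and Xbp1; levels compare pools within a panel, not genes. The lines slope the same way on both arrays for Ssr2, Kdelr2, Tmed10, Hspa5 and Xbp1, and for Sec61b only the transgenic signal of array 2 falls away.

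The called genes of the machinery lay in unusual places on the arrays. On array 2 the right edge and the lower left corner held patches of high ratios that spanned spots of many genes. Of all detected genes, 259 lay where the median scanner ratio of the spots within 0.5 mm was at least 1 in size, all of them through array 2. That median was positive for 191 of the 259. Among the 259, 10.04% were called higher, against 0.680% of the genes elsewhere. Kdelr2 and Tmed10 were the 2 genes of the machinery among them, with surrounding scanner medians of 2.54 and 2.74 on array 2 and 0.08 and −0.04 on array 1. Less their nearest spots of similar brightness, Kdelr2 had ratios of 0.32 and 0.16 and was not called.

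For Tmed10 this comparison gave 0.17 and 2.68, since its similarly bright spots on array 2 had a median of −1.27 while the 10 spots nearest to it, of any brightness, had one of 0.79. The array 2 value of Tmed10 therefore depends on which neighbours are used, and less all spots within 0.5 mm its mean was 0.48. Ssr2 lay in the last of 532 spot rows. Of the 10 spots nearest to Ssr2 on array 1, 4 were at least 1.5-fold lower, with a median of −0.18 and a lowest value of −1.34, above the −2.01 of Ssr2. On array 2, 2 of the 10 were, with a median of −0.45. The spots within 0.5 mm had medians of 0.00 and −0.55 on arrays 1 and 2, and the nearest spots of similar brightness 0.70 and −1.06. Ssr2 stayed called less all spots within 0.5 mm (−1.43), and less spots of similar brightness it had −2.72 and −0.32 and was not called. The map of the arrays shows where these probes lie.

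**Figure D3:**
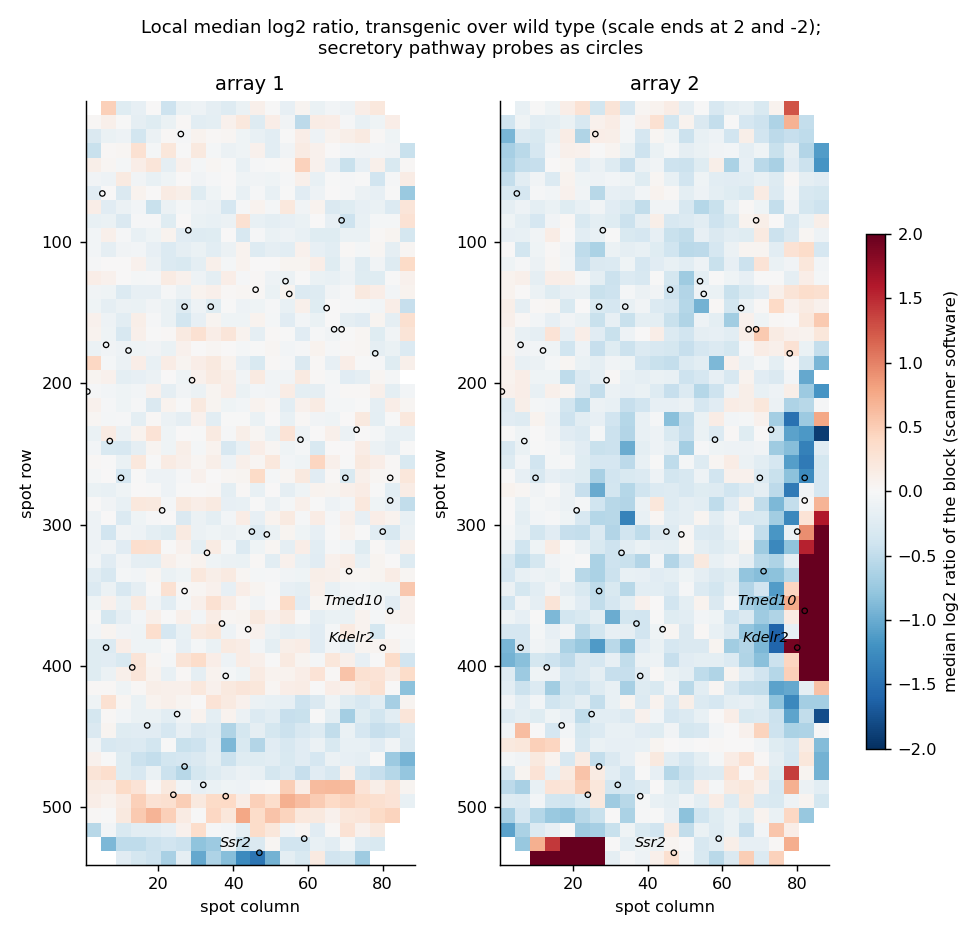
Median log2 ratio of transgenic over wild type from the scanner software in blocks of 10 spot rows and 4 spot columns on each array, with colours ending at 2 and −2 and circles for the probes of the machinery. On array 2 Kdelr2 and Tmed10 lie in a dark red patch at the right edge, and on array 1 Ssr2 lies in a blue block of the last rows.

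Setting ratios against nearby spots of similar brightness brought the arrays closer for these genes. The median SD over arrays became 0.20 in place of 0.44 for the machinery, against 0.17 in place of 0.28 over all genes. The ratios had the same sign on both arrays in 26 of the 46 genes in place of 20, and in 6007 of 10401 over all genes in place of 4723. Across all genes the correlation of the arrays became 0.33 in place of −0.03, and across the 46 genes 0.21 in place of 0.10. The median of the machinery was −0.03 beside −0.01 over all genes, and 0 genes of the machinery were called, where 1.88% of all genes were (0.875% higher and 1.01% lower). Less all spots within 0.5 mm, Ssr2 was the 1 called gene of the machinery, where 1.9% of all genes were called and 0.99% were lower. These comparisons by position were chosen after the data were seen. The scatter of the arrays and the plot before and after this step show the same genes.

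**Figure D4:**
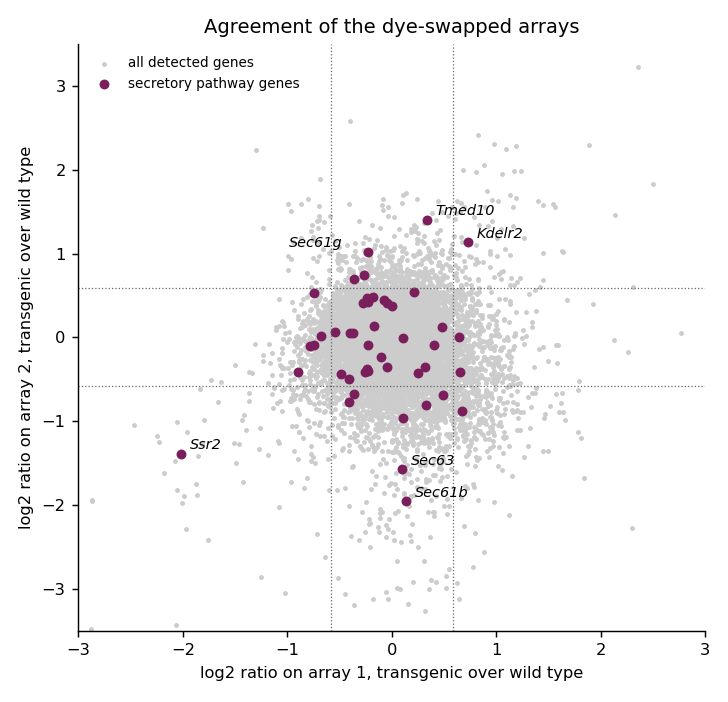
Log2 ratio of transgenic over wild type on array 1 (horizontal axis) and array 2 (vertical axis) for all detected genes (grey) and the 46 genes of the machinery (purple), with dotted lines at 1.5-fold. Ssr2 lies in the lower left corner region and Kdelr2 in the upper right, and most other genes of the machinery lie near the centre or spread along 1 axis.

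**Figure D5:**
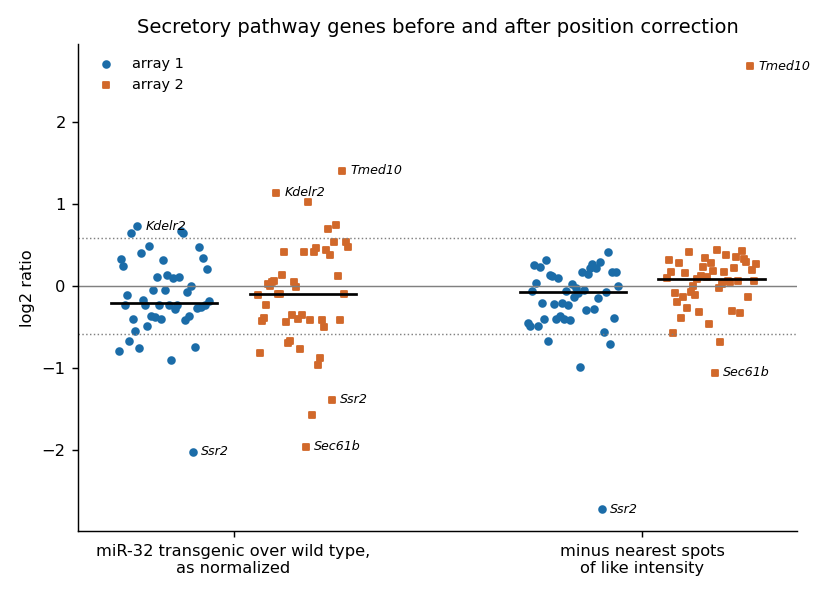
Log2 ratio of transgenic over wild type (vertical axis) of the 46 genes on array 1 (circles) and array 2 (squares), as normalized and less the nearest spots of similar brightness, with bars at the medians and dotted lines at 1.5-fold. On array 2 the SD over the 46 genes fell from 0.68 to 0.50, although Tmed10 moved out to 2.68. On array 1 this SD hardly changed, from 0.50 to 0.49, and Ssr2 moved out to −2.72.

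Probes of the same gene also differed. Of the 46 genes, 24 had more than 1 detected probe, and in 16 of these a probe had the opposite sign to another. The median range over the probes of a gene was 0.49. It was widest for Spcs3, at 1.60, whose probes gave 0.11 and −0.96, 0.06 and 1.42, and 0.97 and 1.37 on arrays 1 and 2. The probes with 1.42 and 1.37 on array 2 lay in the array 2 patches, with surrounding scanner medians of 2.91 and 1.83. Less spots of similar brightness the probe with 1.37 still passed the limit, at 0.81 and 1.44, and the Canx probe named next did so at 0.68 and 0.77. Of 37 further probes 3 passed the rule, where 1.37% of 3953 further probes of all genes did: the dimmest probe of Spcs3 and a dimmer probe of Canx (0.69 and 0.86) higher and a dimmer probe of Tmed2 (−1.20 and −0.59) lower. None of these 3 stood for its gene by the rule of highest intensity, and they were chosen here after their values were seen.

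Of 83 further genes of the same route, 78 were detected, and 1 was higher, 2 were lower and 75 were neither, beside the 2.22% of all genes. Their median was −0.14. In translocation (19 detected) none was called, and the largest means came from array 2 alone: Krtcap2, an oligosaccharyltransferase subunit, had −0.06 and −3.03, and Get4, of the tail-anchored protein route, had 0.31 and −3.26. Similarly bright spots near Krtcap2 and Get4 were also low on array 2, with medians of −1.19 and −1.83. Less similarly bright spots the means of Krtcap2 and Get4 were −0.98 and −0.57. In vesicle transport (41 detected) the higher gene was Preb, the exchange factor that starts COPII assembly, with 11.72 and 13.20 in the transgenic pool against 11.07 and 11.71 in the wild-type pool (1.07 ± 0.59). Preb lies in the same patch as Kdelr2, with a surrounding scanner median of 2.91 on array 2, and less the spots within 0.5 mm its mean was 0.46 and it was not called. Less spots of similar brightness its ratios were 0.27 and 2.34 (mean 1.30), also not called. Golga2, a Golgi matrix protein, had 0.03 and −1.75, with a mean of −0.59 less the spots within 0.5 mm and of 0.26 less similarly bright spots.

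In folding (18 detected) the lower genes were Hspa5, which encodes the ER chaperone BiP, and Xbp1, a transcription factor of the unfolded protein response. Hspa5 had 12.70 and 11.59 in the transgenic pool against 13.60 and 13.04 in the wild-type pool, and Xbp1 had 8.30 and 8.46 in the transgenic pool against 9.20 and 9.32 in the wild-type pool. Less similarly bright spots nearby, Hspa5 had −1.45 and −1.04 and Xbp1 −0.90 and −0.85, so that both stayed called, and both did so by the scanner's own ratios. No gene of the machinery kept its call in both of these settings. The scanner's own ratio of Xbp1 on array 2 was −1.30, where the 10 spots nearest to it had a scanner median of −1.10. Of the 10 spots nearest to Hspa5 on array 2, 3 were at least 1.5-fold lower, with a median of −0.37. Hspa5 and Xbp1 had 1 probe each. Of 8 plasma and B cell markers 4 were detected and 1, Jchain, was lower, at −2.05 and −1.82, where 1.31% of all detected genes were. Cd79b and Sdc1 were at −0.63 and −0.41 and Derl3, the brightest of the 4, at 0.04. Their summed intensities were 4883 and 7094 in the transgenic pool against 6469 and 6326 in the wild-type pool, most of it from Derl3 (12.12 and 12.69 in log2 in the transgenic pool against 12.39 and 12.35 in the wild-type pool). The part of plasma cells in the Hspa5 and Xbp1 values was not tested.

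Promoter elements were compared with the ratios as a description. In windows of 250 bases before and 50 after the start, 39 genes of the machinery had a promoter, and motifs were searched on both strands. The ER stress element (CCAAT, 9 bases, CCACG) was found in 0.137% of 27025 promoters, among them Pdia6 (0.16 ± 0.36) and Canx (−0.24 ± 0.80). It was also in Hspa5, at −1.18 ± 0.39, and in Calr, Hsp90b1, Dnajc3, Creld2 and Ero1b, at −0.10, −0.10, −0.03, 0.27 and −0.59. The element TGACGTGG was in 0.714% of promoters and in 4 genes of the machinery, all of the coats, with Sec24d at −0.59, Sec23a at −0.52, Copb1 at −0.31 and Copb2 at −0.17. Of the further genes of the route it was in Arf1, Stx5a and Kdelr3, at −0.79, −0.60 and −0.50, and in Sec16b, which was not detected. All 7 detected carriers of this element thus had a mean below 0. The mean was also below 0 in 6172 of all 10405 detected genes and in 58 of the 78 further genes detected. Less similarly bright spots, Sec24d, Sec23a, Copb1 and Copb2 were at −0.43, −0.34, −0.16 and −0.02. None of the 7 was called, though Arf1 and Stx5a were lower by the scanner's own ratios and these and Kdelr3 in the deposited table. The related element ATTGG, 1 base, CCACG was in 0.0444% of promoters and in 0 of the 39. Of the further genes of the route it was in Dnajb11, at −0.02, and in Krtcap2, at −1.55 through array 2 alone. No promoter of the machinery held more than 1 of these elements. Matches to these letters are a description of the windows and not of binding.

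Markers of the tissue give the setting of these values. All 12 luminal markers were detected, with 1 higher (Tmprss2) and 1 lower (Hoxb13). Tmprss2 lies in the right-edge patch of array 2 (surrounding scanner median 3.06), and less similarly bright spots neither was called, at 0.42 and 0.97 for Tmprss2 and −0.54 and −0.48 for Hoxb13. The summed intensities of the 12 were 54154 and 41621 in the transgenic pool against 55996 and 44090 in the wild-type pool. Adipocyte markers were lower in 5 of 7 detected, with sums of 2076 and 1896 in the transgenic pool against 6789 and 7680 in the wild-type pool. Macrophage markers were lower in 2 of 7, with sums of 936 and 1144 in the transgenic pool against 1509 and 1755 in the wild-type pool. Over all detected genes 0.913% were called higher and 1.31% lower. Less similarly bright spots, 5 adipocyte markers and 1 macrophage marker were called lower, where 1.01% of all genes were. Basal, smooth muscle, fibroblast and endothelial markers had 0 calls among 8, 8, 8 and 5 detected. The part of these cells in the ratios of the machinery was not tested. Of the spots, 58.3% and 57% passed the background limit in Cy3 on the first and second array and 42.1% and 21.1% in Cy5, so the transgenic pool of array 2 was read in the weakest channel.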

How the data were processed

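Labelled RNA of a transgenic and a wild-type pool was measured on 2 dye-swapped arrays, with the direction of every ratio taken from the dyes in the labels. The deposited scanner files, written by Feature Extraction 11.0.1.1 according to the headers, hold the median intensity of each spot and of its local background, with no dye normalization. The scanner software's log ratio is a deposited log10 of Cy5 over Cy3, per the file headers, and the authors' value table holds the same ratio in log2 of transgenic over wild type (r and slope of 1 over 8498 probes, column medians near 0). How its rows were filtered is not stated in the sources.

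Signals were corrected with limma 3.58.1 in R 4.3.3 by normexp with an offset of 50 and normalized by loess within arrays, with control and outlier spots (157 and 177) at weight 0; pool intensities also had Aquantile normalization between arrays. The planned signal was the spot mean, replaced by the median since the files used here hold no column of means. Each array had 43379 spots of 41174 probes. Accessions without versions were matched to a RefSeq table, naming 27816 probes. A gene took its brightest probe, and was called at 1.5-fold with one sign on both arrays. All 47 genes are named, with pool intensities for called genes and for the highest and lowest of each complex. Further genes are those called and the 2 largest in each of 3 lists. Genes and lists were chosen with earlier results of these data known.

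Alternatives were other background, scaling, probe and detection choices, single arrays, a 2-fold limit and position on the array. The number of arrays limits the precision. Tables and plots were made with pandas 2.3.3, numpy 2.4.6, scipy 1.17.1 and matplotlib 3.10.9 in Python 3.11.15.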

Additional observations from a re-analysis of the deposited data

How the results depend on the processing

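No paired analysis was possible because each genotype is 1 pool and the arrays repeat it. Over all genes, 95 were higher and 136 lower, and the counts were 246 and 621 by the scanner's own log ratios, 149 and 239 with an offset of 16, 2 and 554 with median centring, and 25 and 37 at 2-fold. They were 173 higher in the deposited table and 76 lower with detection in both pools. Single arrays gave 544 to 845 higher and 558 to 1565 lower. In the machinery, the 1 higher gene became 0 by the scanner's own ratios, in the authors' deposited table, averaged over probes, after median centring, at 2-fold and less nearby spots in both ways, a setting chosen after seeing the data. It was also 0 when genes in patches were set aside, which removes Kdelr2 itself. The 1 lower gene became 0 with the scanner software's ratios, in the deposited table and less spots of similar brightness, and 6 with median centring. With median centring 554 of all 10405 detected genes were lower. Single arrays gave 4 to 5 higher and 6 to 9 lower of the 46 genes of the machinery. Over all 10405 genes they gave the 544 to 845 and 558 to 1565 named above. The median ratio of −0.10 was −1.005 after median centring (−0.57 for the median of all genes) and −0.20 to −0.09 on single arrays. Less the median of all genes it was −0.04, against −0.44 with median centring and −0.18 to −0.01 on single arrays. Among further genes of the route, the 1 higher gene became 0 by the scanner's own ratios, in the authors' table, after median centring, at 2-fold and less nearby spots in both ways, and 4 to 8 on single arrays. Setting patches aside gave 0 by removing Preb itself. The 2 lower genes became 4 by the scanner's own ratios, 5 in the authors' table, 11 after median centring, 0 at 2-fold and 10 to 20 on single arrays, and their median became −1.01 with median centring. Counting a list's number as kept within 1.5 times, and a ratio or median within its SD over the arrays, 82 counts and medians were kept and 50 were not, and 325 ratios of named genes were kept and 46 were not. No called direction was turned. The weak Cy5 signal of array 2 limits the dimmer coat genes.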
